A study of Homo sapiens with 12 samples.

Results

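The GADD45 genes GADD45A, GADD45B and GADD45G, the BTG genes BTG1, BTG2 and BTG3, and the polo-like kinase genes PLK2 and PLK3 were followed through 12 RNA-seq libraries of human cancer cell lines. The 8 genes were taken by name from a table of 36486 genes, in which rows of the same symbol had been summed. TOV-112D, an ovarian cancer line whose p53 carries the R175H substitution, was treated for 3 h with the solvent DMSO, with UCI-1001 or with UCI-1014, with 2 libraries for each treatment. The labels call this time an induction and give no dose. The study states a dose for UCI-1001, but no dose for the UCI-1014 libraries is given in the sources used here. The osteosarcoma line Saos-2 was sequenced as the parental p53-null cells and as a stable line with lentiviral, doxycycline-inducible p53-WT, with 3 libraries each and 16 h of induction in the labels of both. The question was which genes respond to the compounds in mutant p53 cells and which depend on p53-WT in the Saos-2 pair.

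All of these genes belong to the early answer of a cell to damage or stress. GADD45 proteins are small acidic proteins that bind PCNA, the CDK1-cyclin B1 kinase and the kinase MAP3K4, through which they feed the p38 and JNK pathways. BTG proteins share an antiproliferative domain with which they hold the CCR4-NOT deadenylase, the complex that shortens the poly(A) tails of mRNAs. PLK2 and PLK3 are the polo-like kinases known from stress responses, unlike PLK1, which drives mitosis. GADD45A, BTG2, PLK2 and PLK3 are textbook targets of p53.

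In short, BTG2, PLK3, PLK2, GADD45A and BTG1 were higher and BTG3 was lower in the p53-WT line than in the p53-null cells. In the main fit UCI-1014 raised all 7 genes that could be tested and UCI-1001 raised 4 of them. The rise of PLK2 with UCI-1014 was small (0.12 on the log2 scale) and turned to -0.012 when libraries were scaled by their totals alone. For GADD45A and BTG1 the test did not tell the rise with UCI-1014 from that with p53-WT. BTG2, PLK3 and PLK2 moved far less with either compound than with p53-WT, and PLK2 was already the highest of the 8 genes per length in DMSO-treated TOV-112D cells.

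The stretch before the start site is shown for the 3 genes with the largest changes in the Saos-2 pair and for BTG1 and GADD45B, which hold a TATA box and differ in their change with p53-WT. The sequences are those of RefSeq on GRCh38.p14, the 250 bases before the start, 5′ to 3′ in the direction of the gene. Capitals mark the CARE match in PLK3, the p53 decamer in PLK2 and the TATA boxes in BTG1 and GADD45B.
BTG2 promoter, chr1:203305269-203305518, plus strand: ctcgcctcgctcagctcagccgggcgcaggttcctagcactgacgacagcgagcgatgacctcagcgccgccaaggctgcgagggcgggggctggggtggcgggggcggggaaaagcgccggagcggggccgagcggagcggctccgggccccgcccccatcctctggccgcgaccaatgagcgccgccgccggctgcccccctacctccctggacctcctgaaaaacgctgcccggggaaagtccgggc
PLK3 promoter, chr1:44800127-44800376, plus strand: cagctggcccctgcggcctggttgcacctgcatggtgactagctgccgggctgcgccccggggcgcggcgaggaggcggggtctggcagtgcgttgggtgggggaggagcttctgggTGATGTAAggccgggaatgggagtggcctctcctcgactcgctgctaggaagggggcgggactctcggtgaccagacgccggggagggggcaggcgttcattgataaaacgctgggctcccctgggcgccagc
PLK2 promoter, chr5:58460087-58460336, minus strand: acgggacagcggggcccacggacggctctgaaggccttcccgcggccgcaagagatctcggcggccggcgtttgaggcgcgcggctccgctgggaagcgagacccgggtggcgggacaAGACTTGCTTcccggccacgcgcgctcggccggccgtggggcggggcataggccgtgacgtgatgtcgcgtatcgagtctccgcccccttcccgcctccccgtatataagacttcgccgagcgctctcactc
BTG1 promoter, chr12:92145847-92146096, minus strand: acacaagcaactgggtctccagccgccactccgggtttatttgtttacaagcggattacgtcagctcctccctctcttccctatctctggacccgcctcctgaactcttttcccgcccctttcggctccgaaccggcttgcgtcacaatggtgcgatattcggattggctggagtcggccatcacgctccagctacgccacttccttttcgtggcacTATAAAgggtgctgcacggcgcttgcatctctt
GADD45B promoter, chr19:2475877-2476126, plus strand: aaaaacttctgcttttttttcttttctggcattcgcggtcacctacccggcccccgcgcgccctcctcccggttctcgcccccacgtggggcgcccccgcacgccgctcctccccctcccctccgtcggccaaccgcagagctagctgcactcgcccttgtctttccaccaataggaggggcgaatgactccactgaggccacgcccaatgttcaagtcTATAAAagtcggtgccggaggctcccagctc

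Both strands of the RefSeq windows from 250 bases before to 50 bases after the start were searched, and 7 of the 8 genes had a window, all but GADD45A. An exact p53 decamer was present in the PLK2 window alone, with its first base at position -132 counted from 0 at the start, and in 6.63% of all 35116 windows. A pair of p53 decamers at most 13 bases apart with at most 2 mismatches was found in 0 of the 7 windows and in 7.82% of all windows. The TATA box TATAAA stood at position -33 in BTG1 and at position -31 in GADD45B, and 11.5% of all windows held it. CARE, TGATGNAA, the element bound by ATF4 with C/EBP proteins, matched in PLK3 at position -133 and in GADD45G at position -102, against 3.62% of all windows. The heat shock element core GAANNTTC (6.77% of all windows), CRE TGACGTCA (1.85%) and AP-1 TGANTCA (7.71%) had no match in the 7 windows. The matches do not overlap each other, and BTG2 and BTG3 had none of these letters in the window. The 7 windows held between 56.0% and 77.3% G and C, against a median of 58.7% over all windows.

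Deposited counts summed to 17762027 to 20717898 per TOV-112D library and to 19593655 to 24629558 per Saos-2 library. Of 6 epithelial or ovarian markers, KRT18 had 0 counts in the 6 TOV-112D libraries, KRT7, PAX8 and MUC16 did not exceed 0.0597 CPM (the count relative to the library size, scaled by the TMM method) and KRT8 0.512 CPM, so that EPCAM alone, at 1.80 to 3.09 CPM, was clearly present. Among the osteoblast markers given here for the libraries labelled Saos-2, RUNX2 (4.16 to 12.1 CPM) was present, COL1A1 lay between 0.397 and 1.84 CPM, ALPL did not exceed 0.532 CPM and IBSP 0.0877 CPM, and SP7 was at 0. KRT18, on the list for the ovarian line, lay between 402 and 559 CPM there. The identity of the lines was not tested further. Replicate 1 of both Saos-2 lines stood apart. Chi-square over the genes, divided by its degrees of freedom, was 23.0 to 38.4 against its fellow replicates, 3.09 to 3.79 between replicates 2 and 3 and 2.08 to 3.73 within the TOV-112D groups. With library totals in place of TMM, the median log2 change over all tested genes moved by -0.14 for UCI-1014 against DMSO, -0.12 for UCI-1014 against UCI-1001 and -0.15 for p53-WT against p53-null. With library totals, 30.1% of the genes called between UCI-1014 and DMSO were higher, compared with 50.4% with TMM, and 25.5% compared with 55.2% between UCI-1014 and UCI-1001.

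Compared as CPM on unscaled library totals per kilobase of the canonical transcript, PLK2 was the highest of the 8 genes in TOV-112D, at 269 ± 0.98 (SD, n = 2) after DMSO, 285 ± 3.5 after UCI-1001 and 267 ± 5.0 after UCI-1014. BTG3 came second in all 3 treatments, at 46.5 ± 0.46 with DMSO and 60.5 ± 2.7 with UCI-1014. GADD45B, BTG1, BTG2, GADD45A and PLK3 followed in that order, from 9.33 ± 0.35 for GADD45B to 1.16 ± 0.0051 for PLK3 with DMSO. On this measure BTG2 and GADD45A with UCI-1014, at 8.99 ± 1.41 and 8.97 ± 0.040, did not differ beyond their spread, and GADD45B (16.0 ± 3.9) overlapped BTG1 (12.9 ± 1.2) there. In the p53-null libraries GADD45A was highest with 42.7 ± 2.8 (SD, n = 3), and its lowest library, 39.6, lay within the range of BTG3, the next gene at 35.1 ± 4.0, which reached 39.7. GADD45B (24.7 ± 1.6) and PLK2 (22.5 ± 0.80) overlapped there as well. BTG2 was at 0.646 ± 0.048 in these libraries, below all the others but GADD45G. In the p53-WT libraries PLK2 (122 ± 6.3) and GADD45A (120 ± 16) overlapped at the top, BTG2 (78.8 ± 5.3) overlapped PLK3 (64.0 ± 8.4) at the edge of the ranges, and GADD45B (18.6 ± 1.1) overlapped BTG1 (17.1 ± 2.3). Some of these overlaps depend on the measure. TPM, an abundance corrected for transcript length, had been planned for levels between genes. In TPM, GADD45A (19.7 to 20.1) lay above BTG2 (14.2 to 18.6) with UCI-1014, and GADD45B (27.2 to 41.7) above BTG1 (23.0 to 24.4). GADD45A (69.6 to 82.6) lay above BTG3 (49.4 to 57.0) in p53-null libraries. With p53-WT, BTG1 (37.8 to 47.5) lay above GADD45B (27.5 to 30.8). BTG3 (30.1 to 40.6) overlapped both of them there in TPM but neither per kilobase. With UCI-1001, GADD45A (8.745 to 9.617) overlapped BTG2 (8.191 to 8.748) in TPM and had the higher mean, while per kilobase BTG2 lay above it. The other overlaps named per kilobase were also present in TPM.

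**Figure D1:**
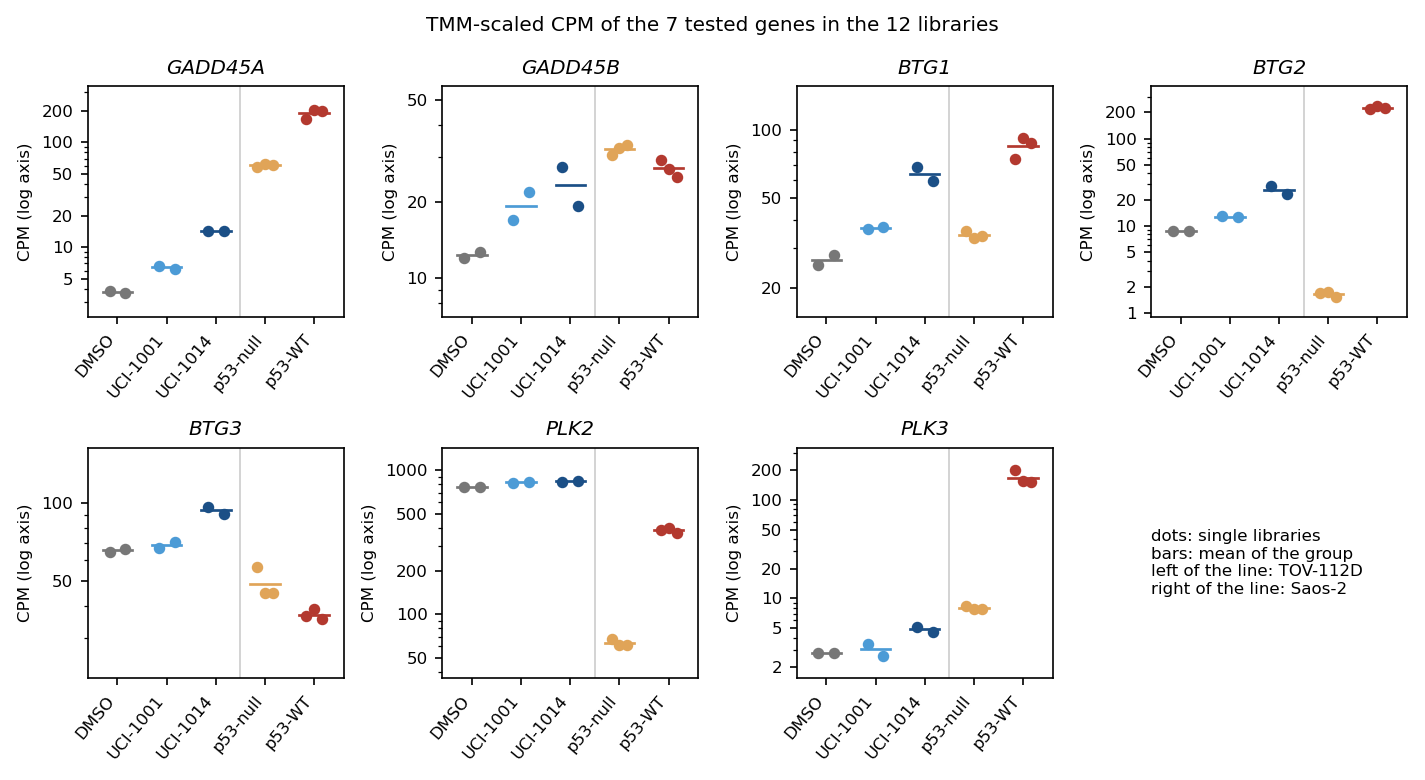
CPM (TMM-scaled within each cell line, log axis) of the 7 tested genes in each of the 12 libraries, with the group mean as a bar. BTG2 and PLK3 of the p53-WT libraries stood far above those of p53-null cells, while PLK2 stayed between 768.3 and 848 CPM over the TOV-112D libraries.

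GADD45A and GADD45B rose with both compounds in TOV-112D, and GADD45G was too low to be tested. GADD45A, the member of the family first described as a p53 target, had 3.81 and 3.68 CPM after DMSO, 6.59 and 6.24 CPM after UCI-1001 and 14.3 and 14.2 CPM after UCI-1014. The 3 treatments did not overlap. UCI-1001 raised it by 0.77 ± 0.15 on the log2 scale (SE; adjusted p = 0.0022 over all 14177 genes tested in TOV-112D, edgeR quasi-likelihood test with Benjamini-Hochberg adjustment). UCI-1014 raised it by 1.92 ± 0.13, or 3.79-fold (adjusted p = 2.45e-08 in the same edgeR fit). These are bulk libraries, in which a change in a share of the cells and a change in all cells cannot be told apart, nor can fewer cells and less RNA per cell.

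GADD45B, the member known as an early target of NF-κB and TGF-β signalling, had 12.01 and 12.7 CPM after DMSO, 16.9 and 21.7 CPM after UCI-1001 and 27.3 and 19.2 CPM after UCI-1014. Both compounds lay above DMSO, and their own ranges overlapped. Its rise was 0.64 ± 0.16 with UCI-1001 (edgeR adjusted p = 0.0115) and 0.90 ± 0.15 with UCI-1014 (edgeR adjusted p = 0.000219). The UCI-1001 call did not hold without either DMSO library (adjusted p = 0.112 and 0.0726) or without UCI-1001 replicate 2 (0.45 on the log2 scale, adjusted p = 0.12). GADD45G had 0 counts in both DMSO libraries and in all 6 Saos-2 libraries, 2 and 3 counts with UCI-1001 and 3 and 2 counts with UCI-1014. It failed the filter on low counts, and since a count of 0 allows up to 3 counts, no fold is given. Without the filter it was called with neither compound (edgeR adjusted p = 0.336 with UCI-1001 and 0.176 with UCI-1014).

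BTG1 and BTG2 of the BTG genes rose with both compounds, and BTG3 with UCI-1014. BTG1, which in background knowledge is a brake on the growth of lymphoid and other cells, had 25.2 and 27.8 CPM after DMSO, 36.2 and 37.2 CPM after UCI-1001 and 68.2 and 59.5 CPM after UCI-1014. The groups did not overlap, and the changes were 0.47 ± 0.082 with UCI-1001 (edgeR adjusted p = 0.00131) and 1.27 ± 0.079 with UCI-1014 (edgeR adjusted p = 8.67e-09). BTG2, a known p53 target, had 8.76 and 8.77 CPM after DMSO, 12.9 and 12.6 CPM after UCI-1001 and 28.7 and 23.0 CPM after UCI-1014. Its libraries were also separated by treatment, with changes of 0.54 ± 0.13 for UCI-1001 (edgeR adjusted p = 0.00866) and 1.55 ± 0.11 for UCI-1014 (edgeR adjusted p = 5.63e-08). Without DMSO replicate 1 or 2 the UCI-1001 change of BTG2 was 0.54 in each case, with adjusted p-values of 0.0728 and 0.0688.

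BTG3, known as a binding partner and inhibitor of E2F1, had 64.8 and 66.1 CPM after DMSO, 66.8 and 70.6 CPM after UCI-1001 and 96.5 and 90.5 CPM after UCI-1014. The UCI-1014 libraries stood above the others, with a change of 0.51 ± 0.054 (edgeR adjusted p = 2.19e-06). With UCI-1001 the difference from DMSO was 0.070 on the log2 scale, with a 95% interval from -0.048 to 0.19 (edgeR adjusted p = 0.452). A second identifier of BTG3, ENSG00000281484, held 4 to 34 counts and was summed with it.

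In TOV-112D, PLK2 had the highest and PLK3 the lowest level per kilobase of the 7 tested genes. PLK2, which besides its role in stress takes part in centriole duplication, had 768.3 and 768.4 CPM after DMSO, 816 and 833 CPM after UCI-1001 and 826 and 848 CPM after UCI-1014. The differences were 0.10 ± 0.033 with UCI-1001 (edgeR adjusted p = 0.054) and 0.12 ± 0.034 with UCI-1014 (edgeR adjusted p = 0.00731), and the latter turned to -0.012 (adjusted p = 0.786) with library totals in place of TMM. The UCI-1014 change was no longer called without either DMSO library (adjusted p = 0.0573 and 0.0707), and the UCI-1001 change was called without either UCI-1014 library (adjusted p = 0.0312 and 0.0333). PLK3, which is known to respond to DNA damage, osmotic stress and hypoxia, had 2.78 and 2.82 CPM after DMSO, 3.47 and 2.62 CPM after UCI-1001 and 5.14 and 4.55 CPM after UCI-1014. The UCI-1001 libraries lay on both sides of DMSO, with a difference of 0.12 and a 95% interval from -0.36 to 0.60, which turned to -0.097 without UCI-1001 replicate 1. UCI-1014 raised PLK3 by 0.79 ± 0.21 (edgeR adjusted p = 0.00719), on 52 and 54 counts with DMSO and 86 and 89 with UCI-1014.

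By count, 4 of the 7 tested genes rose with UCI-1001 and 0 fell, beside 15.7% of all tested genes called in either direction, 9.39% called higher and 6.36% called lower. None of the 4 rose by more than 1 on the log2 scale, which 1.18% of all tested genes did, and 1.3% changed by more than 1 in either direction. The UCI-1001 and DMSO libraries did not overlap for 6 of the 7 genes, beside 57.4% of all tested genes. The count was 2 without DMSO replicate 1 and 2 without DMSO replicate 2. With UCI-1014 all 7 tested genes rose, 3 of them by more than 1 (GADD45A, BTG2 and BTG1), beside 47.1% of all tested genes called, 23.7% higher and 23.4% lower. The UCI-1014 count was 6 with library totals in place of TMM and with DESeq2 per cell line, and 5 with limma on log2(TPM + 1). A change over 1 was found in 5.49% of all tested genes and a rise over 1 in 4.51%. In CPM the UCI-1014 and DMSO libraries did not overlap for any of the 7, beside 73.4% of all tested genes. Those of PLK2 and PLK3 overlapped in TPM. The 7 genes had a median change of 0.47 for UCI-1001 and 0.90 for UCI-1014, beside 0.0016 and -0.016 over all tested genes. Each of the 7 had at least 35 counts in every library, so none passed the filter through a single group. The DMSO libraries are common to both comparisons, so the 2 sets of changes are not independent of each other.

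Set directly against UCI-1001, UCI-1014 gave higher levels of 5 of the 7 genes and lower levels of none, beside 31.1% of all tested genes called, 17.1% higher and 13.9% lower. GADD45A and BTG2 exceeded 1 on the log2 scale, beside 1.84% of all tested genes in either direction and 1.54% as a rise. The libraries of the compounds did not overlap for 5 of the 7 genes, beside 63.7% of all tested genes. The difference was 1.15 ± 0.12 for GADD45A (edgeR adjusted p = 5.7e-06), 1.01 ± 0.11 for BTG2 (6.54e-06), 0.80 ± 0.075 for BTG1 (2.1e-06), 0.44 ± 0.053 for BTG3 (2.14e-05) and 0.67 ± 0.21 for PLK3 (0.0259). PLK3 was not called without UCI-1001 replicate 2 (0.49, edgeR adjusted p = 0.156) or without UCI-1014 replicate 1 (0.59, adjusted p = 0.129). GADD45B differed by 0.26 with a 95% interval from -0.047 to 0.56, and PLK2 by 0.022 with an interval from -0.050 to 0.093, which do not show that the compounds act alike on them. GADD45B was called without UCI-1001 replicate 2 (0.46, adjusted p = 0.0378) and without UCI-1014 replicate 2 (0.51, adjusted p = 0.00895), and PLK2 turned to -0.094 (adjusted p = 0.0348) with library totals in place of TMM. Because no dose was available for the UCI-1014 libraries, a difference of the compounds cannot be told apart from a difference of dose.

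**Figure D2:**
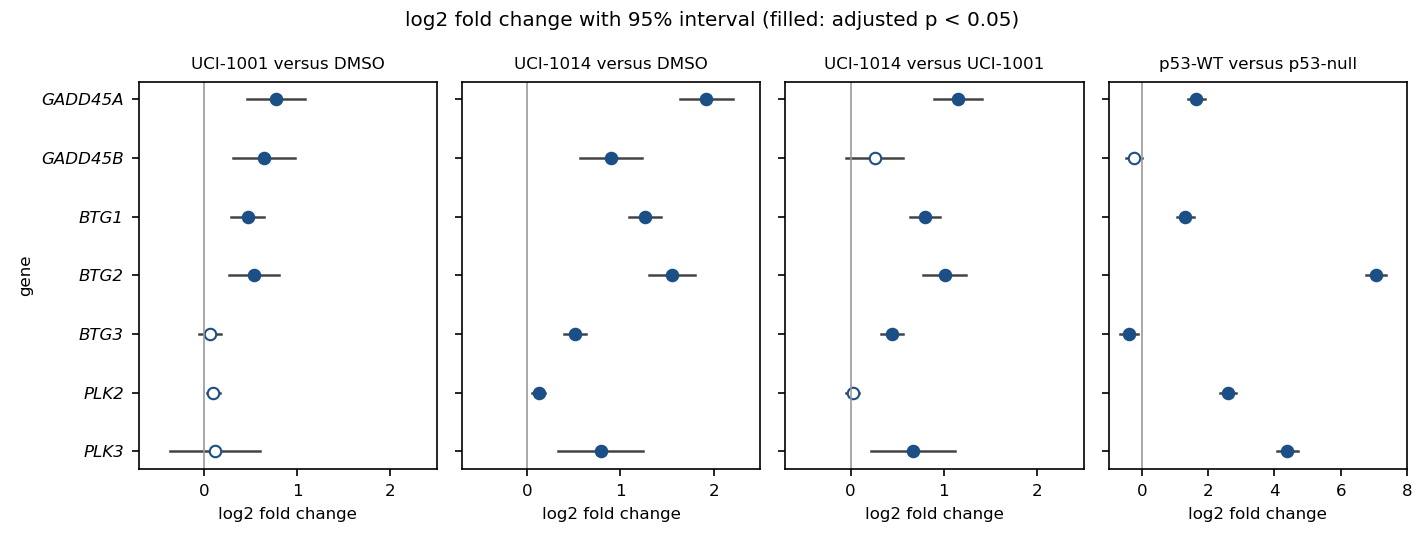
log2 fold change with its 95% interval for the 7 tested genes in the 4 comparisons, filled where the adjusted p was below 0.05. The p53-WT panel has a wider axis, on which BTG2 reached 7.08 and PLK3 4.39, and all 7 points of UCI-1014 versus DMSO lay above 0.

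The p53-WT cells of the Saos-2 pair are a stable transduced line. Effects of making that line cannot be told apart from those of p53-WT. The largest change of the 8 genes in this pair was that of BTG2. It had 1.71, 1.75 and 1.54 CPM in the p53-null libraries and 218, 235 and 223 CPM in the p53-WT libraries. The 135-fold difference was 7.08 ± 0.14 on the log2 scale (SE; edgeR adjusted p = 3.25e-10 over all 14275 genes tested in Saos-2). In raw counts the p53-null libraries held 35 to 37 counts of BTG2 and the p53-WT libraries 4724 to 5056. BTG1 of the same family went from 35.4, 33.1 and 33.8 CPM to 74.4, 91.8 and 87.0 CPM, a rise of 1.31 ± 0.11 (edgeR adjusted p = 1.69e-06). BTG3 went the other way, from 56.4, 44.8 and 44.6 CPM to 36.5, 38.6 and 35.5 CPM, a fall with a log2 change of -0.40 ± 0.12 (edgeR adjusted p = 0.0123). Its p53-null replicate 1 was the highest, and without p53-WT replicate 3 the call was lost (log2 change -0.37, adjusted p = 0.0507), while without replicate 1 of both lines the change was -0.27 (adjusted p = 0.00352).

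Both polo kinases rose with p53-WT. PLK3 had 8.39, 7.82 and 7.89 CPM in p53-null and 200.4, 154 and 152 CPM in p53-WT cells, a 21.0-fold difference (4.39 ± 0.15, edgeR adjusted p = 1.88e-09). PLK2 rose from 67.5, 61.1 and 60.9 CPM to 382, 396 and 368 CPM, a 6.05-fold difference (2.60 ± 0.10, edgeR adjusted p = 4.59e-09). Even so, its level in p53-WT cells was 122 per kilobase, below the 269 of DMSO-treated TOV-112D cells. These values are on unscaled library totals, and the lines were not tested against each other.

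The GADD45 genes parted in the Saos-2 pair. GADD45A rose from 58.0, 62.6 and 61.2 CPM to 166, 202 and 199.6 CPM (1.64 ± 0.11, edgeR adjusted p = 2.4e-07). GADD45B had 30.6, 32.4 and 33.4 CPM in p53-null and 29.2, 26.9 and 24.9 CPM in p53-WT cells. All 3 p53-WT libraries were lower, but the log2 difference of -0.25 ± 0.11 missed the threshold (edgeR adjusted p = 0.0595). It was called lower without p53-null replicate 1 (-0.29, adjusted p = 0.044), without p53-WT replicate 1 (-0.31, adjusted p = 0.0138), without both (-0.34, adjusted p = 0.00113) and with library totals (-0.41, adjusted p = 0.00678). In all, 5 of the 7 tested genes rose and 1 fell, beside 66.5% of all tested genes called, 33.5% higher and 33.0% lower. All 5 rises exceeded 1 on the log2 scale, which 30.5% of all tested genes did in either direction and 17.9% as a rise. The 2 lines did not overlap for any of the 7 genes, beside 70.7% of all tested genes. The median change of the 7 genes was 1.64, beside -0.013 over all tested genes.

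The compound and p53-WT changes were then compared in a fit of all 12 libraries, in which the difference of the 2 changes was the tested quantity. For UCI-1014 minus p53-WT the difference was 0.21 ± 0.17 for GADD45A (edgeR adjusted p = 0.32) and -0.11 ± 0.15 for BTG1 (adjusted p = 0.561), neither of which was called, while 53% of all 15794 genes tested were. BTG2 (-5.59 ± 0.17, adjusted p = 2.44e-11), PLK3 (-3.68 ± 0.25, adjusted p = 3.2e-08) and PLK2 (-2.54 ± 0.11, adjusted p = 4.31e-10) rose less with UCI-1014 than with p53-WT. GADD45B (1.09 ± 0.20, adjusted p = 0.000462) and BTG3 (0.84 ± 0.15, adjusted p = 0.000227) differed in the other direction. For UCI-1001 minus p53-WT all 7 differences were called, from -6.57 ± 0.17 for BTG2 to 0.86 ± 0.20 for GADD45B, beside 49.7% of all genes. The 2 compounds share the DMSO and the p53 libraries in these differences. Cell line, p53 genotype, agent and time differ together between the pairs and cannot be told apart.

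The share of each gene in the summed level of its family was then set side by side, with no test. With DMSO, GADD45B held 78.2% ± 1.1 (SD, n = 2) and GADD45A 21.8% ± 1.1 of the summed GADD45 level per kilobase. The GADD45A share was 23.5% ± 3.9 after UCI-1001, 36.2% ± 5.7 after UCI-1014, 63.4% ± 0.62 (SD, n = 3) in p53-null and 86.4% ± 2.2 in p53-WT cells. BTG3 held 83.5% ± 0.43 of the BTG level after DMSO, 79.0% ± 0.54 after UCI-1001, 73.5% ± 1.5 after UCI-1014 and 80.8% ± 1.6 in p53-null cells, but 20.04% ± 0.60 in p53-WT cells. There BTG2 held 65.7% ± 0.48, from 1.5% ± 0.17 in p53-null cells, and with UCI-1014 it held 10.9% ± 1.0, from 6.01% ± 0.11 with DMSO. PLK3 made up less than 1% of the PLK2 and PLK3 sum in all 6 TOV-112D libraries, 13.1% ± 0.25 in p53-null and 34.3% ± 3.6 in p53-WT cells.

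**Figure D3:**
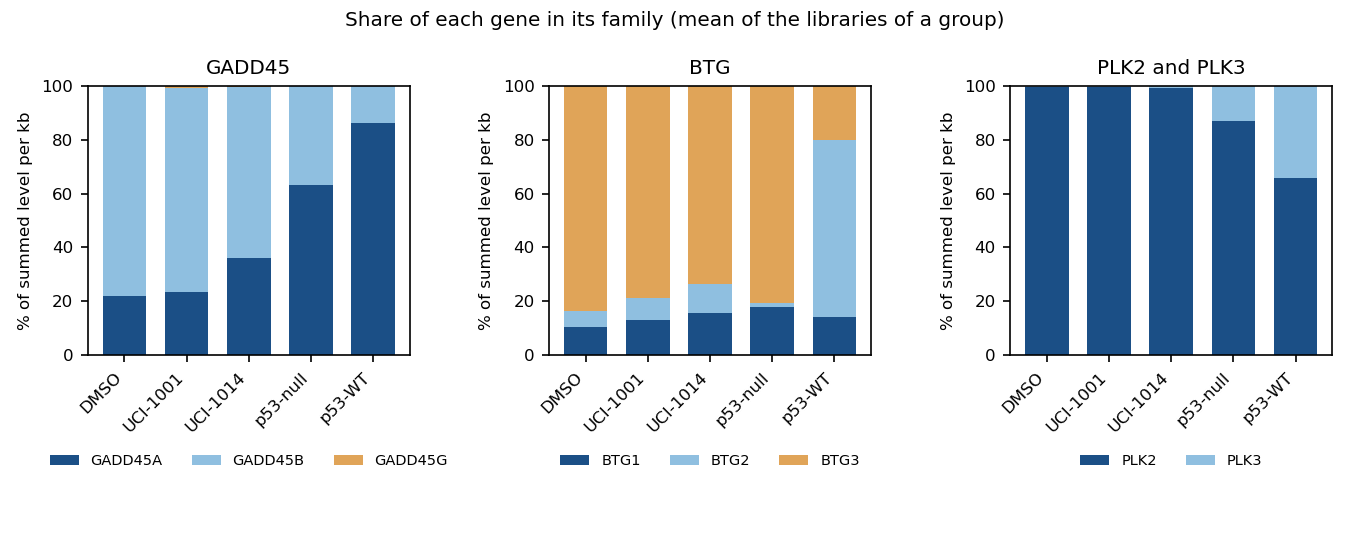
Mean share of each gene, in percent, of the summed level per kilobase of its family in the 5 groups. GADD45A and BTG2 take the largest shares of their families in p53-WT cells, at 86.4% and 65.7%, while PLK3 (0.43% with DMSO) and GADD45G are too low to be seen in TOV-112D.

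Transcript estimates add to this which forms of the genes were counted. GADD45A-205, a protein-coding form of 1093 bases, had 0 estimated counts in all 6 TOV-112D libraries and 29.9% ± 12.3 (SD, n = 3) and 26.7% ± 11.99 of the GADD45A counts in p53-null and p53-WT cells. PLK2-215 likewise took 0.21% ± 0.30 (SD, n = 2) of the PLK2 counts with DMSO and 14.8% ± 8.9 and 8.06% ± 7.0 in p53-null and p53-WT cells. A form of BTG3 with 6 exons, beside 5 in the canonical form, took 6.98% ± 1.3 with DMSO, 10.3% ± 0.60 with UCI-1014, 20.5% ± 0.76 in p53-null and 27.1% ± 3.7 in p53-WT cells. BTG2-202, annotated as a target of nonsense-mediated decay, took 7.04% ± 1.3 of the BTG2 counts in p53-WT cells and 2.81% ± 2.4 in p53-null cells, the latter on a mean of 1.04 estimated counts. In TOV-112D its share went from 6.08% ± 1.6 with DMSO to 3.76% ± 1.6 with UCI-1014, on means of 10.2 and 17.7 estimated counts. These are estimates of the quantifier on forms that share most of their sequence, and they were not tested.

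Around the GADD45 genes, the partner list of 17 genes (PCNA, CDK1, CCNB1, CDKN1A, TDG and the MAP kinases up to p38 and JNK) had 16 tested members. Of these 2 rose and 2 fell with UCI-1001, 5 rose and 6 fell with UCI-1014, and 8 rose and 4 fell with p53-WT, beside 15.7%, 47.1% and 66.5% of all tested genes called in either direction. With DESeq2 per cell line the UCI-1014 count was 7 in place of 11. The largest change belonged to CDKN1A, the CDK inhibitor p21, which rose by 1.65 ± 0.096 with UCI-1001 (edgeR adjusted p = 3.88e-08), 3.54 ± 0.084 with UCI-1014 (2.53e-13) and 7.01 ± 0.19 with p53-WT (6.15e-10). TDG, a thymine DNA glycosylase that binds GADD45A in DNA demethylation, rose by 0.27 ± 0.050 with UCI-1001 (edgeR adjusted p = 0.0018) and 0.75 ± 0.049 with UCI-1014 (1.44e-08). CCNB1, cyclin B1, fell in p53-WT cells, with a log2 change of -2.83 ± 0.14 (edgeR adjusted p = 1.53e-08). The median over the list was -0.034, -0.11 and 0.48 in the 3 comparisons.

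The list of TOB proteins and CCR4-NOT subunits, the deadenylation partners of BTG proteins, held 18 genes. Of the 17 tested in TOV-112D, 2 rose and 1 fell with UCI-1001 and 6 rose and 3 fell with UCI-1014, and of 18 in Saos-2, 5 rose and 9 fell, beside the same 15.7%, 47.1% and 66.5% of all tested genes. The deadenylase subunit CNOT6L led the rises in TOV-112D, with 0.30 ± 0.079 for UCI-1001 (edgeR adjusted p = 0.0175) and 0.78 ± 0.077 for UCI-1014 (1.21e-06). TOB2 fell with UCI-1001 (-0.29 ± 0.043, edgeR adjusted p = 0.000304), and CNOT9 (-1.15 ± 0.099) and CNOT1, the scaffold of the complex (1.14 ± 0.099), parted with p53-WT, both with an edgeR adjusted p of 1.71e-06. Medians were -0.016 and 0.028 in TOV-112D and -0.34 in Saos-2.

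Of the 14 genes on the list of other polo kinases and regulators of PLK1, 2 rose and 1 fell with UCI-1001, 5 rose and 3 fell with UCI-1014, and 4 rose and 10 fell with p53-WT, where the median was -2.15. The shares called over all tested genes were again 15.7%, 47.1% and 66.5%, and with DESeq2 per cell line the UCI-1014 count was 4 in place of 8. PLK4, the kinase of centriole duplication, fell in p53-WT cells with a log2 change of -3.89 ± 0.17 (edgeR adjusted p = 7.9e-09). PLK5, a kinase-deficient family member, rose by 4.5 ± 0.58 with p53-WT (edgeR adjusted p = 4.22e-05). With UCI-1014 it rose by 1.585 ± 0.58 (edgeR adjusted p = 0.0371), the largest called change of this list there. WEE1, an inhibitory kinase of CDK1, rose by 0.28 ± 0.064 with UCI-1001 (edgeR adjusted p = 0.0074) and 0.66 ± 0.063 with UCI-1014 (8.17e-07).

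The list of transcription factors reported upstream of these genes had 17 tested members of 18. Of these 8 rose and 2 fell with UCI-1001, 13 rose and 3 fell with UCI-1014, and 8 rose and 6 fell with p53-WT, with medians of 0.070, 0.32 and -0.14, beside calls for 15.7%, 47.1% and 66.5% of all tested genes. ATF3, a stress-induced factor of the ATF/CREB family, rose by 4.05 ± 0.24 with UCI-1001 (edgeR adjusted p = 4.52e-08), 5.72 ± 0.20 with UCI-1014 (1.83e-11) and 1.74 ± 0.13 with p53-WT (4.67e-07). DDIT3, the CHOP factor of the unfolded protein and integrated stress responses, rose by 3.42 ± 0.15 with UCI-1001 (edgeR adjusted p = 2.21e-09) and 4.78 ± 0.14 with UCI-1014 (2.83e-12). BRCA1 fell by 3.23 ± 0.12 on the log2 scale with p53-WT (edgeR adjusted p = 2.51e-09).

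The patterns of the 7 genes were set side by side over both lines together. Over the 12 libraries, with log2 CPM scaled to mean 0 and SD 1 within each line, the Pearson correlations among GADD45A, BTG1 and BTG2 were 0.991 to 0.993. PLK3 correlated with these at 0.946 to 0.965 and PLK2 at 0.896 to 0.921. GADD45B and BTG3 correlated with each other at 0.711 and with the rest between -0.093 and 0.074, values that pool higher levels with UCI-1014 in TOV-112D and lower levels with p53-WT in Saos-2. These are descriptions over points that share libraries and groups. Outside the set, the gene with the pattern most like GADD45A among 12569 genes was UBE2H (r = 0.998), followed by MORC4 (0.997). For BTG1 these were HIST2H2BE and TDG (both 0.995), for BTG2 MTO1 and GDF15 (both 0.997), for PLK2 CRY2 (0.990) and PLEKHM3 (0.986), and for PLK3 EPHA2 (0.991) and ACHE (0.985). GADD45B was most like DUSP2 (0.954) and EIF1AD (0.951), and BTG3 most like RABGGTB and RINT1 (both 0.979).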

How the data were processed

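RNA-seq of 12 libraries (6 TOV-112D, 6 Saos-2) was analysed from the processed files, and no reads were aligned again. The authors quantified reads on GRCh38 with kallisto 0.48.0 and deposited whole-number counts per Ensembl gene, each the sum over the gene's transcripts, which they analysed with DESeq2 1.38.3. The annotation release is not given in the sources used here. The deposited gene counts are not normalized. The authors also deposited, for each library, kallisto's estimated counts, effective lengths and abundances in TPM (corrected for transcript length, which short transcripts can inflate) for 187626 transcripts, of which 165858 were found in GENCODE 44.

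Samples were grouped by their labels. Counts of the 40295 features were summed by symbol to 36486, of which 8072 without a usable symbol, among them 29 symbols read as dates, were kept by identifier. One edgeR 4.0.16 fit per cell line (TMM, filterByExpr, glmQLFit, glmQLFTest, R 4.3.3) gave log2 fold changes, and genes were called at a Benjamini-Hochberg adjusted p below 0.05 over all genes tested. Nothing in the labels says that replicates are separate cultures, so p-values measure the spread between these libraries, which may be technical. The spread of replicates, as edgeR's biological coefficient of variation, came to 3.59% (TOV-112D) and 12.3% (Saos-2). Levels between genes were CPM on library totals per kilobase of the canonical transcript. TPM had been planned for them, and overlaps that differed in TPM are named with those levels. The alternatives, with DESeq2 1.42.0 and limma 3.58.1 on log2(TPM + 1), are given with the closing observations. The comparison of changes across the cell lines, the fit on library totals, the crossed block and the fit without replicate 1 of both Saos-2 lines were chosen after the data had been seen.

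The 8 genes and the gene lists were chosen with earlier results of these data known. Named beside the 8 genes are, for each tested gene the 2 genes with the highest correlation, and for each list and comparison at most the 2 called genes with the largest change. Some genes meant for checks are not reported here. Figures were drawn with matplotlib 3.10.9.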

Additional observations from a re-analysis of the deposited data

How the results depend on the processing

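Over the 7 tested genes, the 4 comparisons and the alternatives run, 418 log2 changes kept their direction and their side of the threshold, 25 lost a call, 14 gained one and 5 turned. The cause of the changes below was not tested. Of the 7 genes, the number called with UCI-1001, 4 in the main fit, was 1 with limma on log2(TPM + 1), 2 with edgeR on all 12 libraries, 0 with a size over 1, and 2 to 5 when a library was left out. It fell from 7 to 3 with UCI-1014, and from 5 to 2 between the compounds, when a size over 1 was asked for, and to 3 between the compounds with limma. With UCI-1014 the number was 5 with limma. It was 6 with library totals, with DESeq2 per cell line, and with DESeq2 or edgeR on all 12 libraries.

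With UCI-1001, limma gave 0.57 for GADD45B, 0.42 for BTG1 and 0.46 for BTG2, edgeR on all 12 libraries gave 0.61 for GADD45B and 0.44 for BTG1, and none of these was called. PLK2 was called with RLE size factors (0.11), a mean of at least 1 CPM (0.10) and DESeq2 per cell line (0.10), and without either UCI-1014 library (adjusted p = 0.0312 and 0.0333). With a library left out the change ranged from 0.45 to 0.81 for GADD45B, 0.53 to 0.56 for BTG2, 0.082 to 0.12 for PLK2 and -0.097 to 0.30 for PLK3. With UCI-1014, PLK2 was not called with limma (0.12), DESeq2 (0.058) or edgeR (0.060) on all 12 libraries, turned with library totals (-0.012), and ranged from 0.11 to 0.15 with a library left out. PLK3 was not called with DESeq2 per cell line (0.80) or limma (0.27). In TPM its DMSO libraries (2.548 to 3.251) and UCI-1014 libraries (3.085 to 4.357) overlapped. Between the compounds, GADD45B was called without a filter on low counts (0.25) and ranged from 0.0050 to 0.51 with a library left out. BTG1 was not called with limma (0.62), PLK2 turned with DESeq2 (-0.0087) and edgeR (-0.011) on all 12 libraries and with library totals (-0.094), and PLK3 was not called with DESeq2 per cell line (0.67), limma (0.25), DESeq2 (0.64) or edgeR (0.63) on all 12 libraries and ranged from 0.49 to 0.89. With p53-WT, GADD45B was called lower with limma (-0.39) and library totals (-0.41) and ranged from -0.31 to -0.19 with 1 library and was -0.34 with replicate 1 of both lines left out, while BTG3 ranged from -0.45 to -0.28 and was -0.27.

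Over all genes, the number called ranged from 185 to 2538 for UCI-1001 (2232 in the main fit), 778 to 7877 for UCI-1014 (6677), 261 to 6070 between the compounds (4406) and 4356 to 10681 for p53-WT (9489), lowest with a size over 1. Same-numbered libraries did not deviate together in TOV-112D (r = 0.0368, -0.0216 and -0.154) and only in part in Saos-2 (0.171, 0.175 and 0.0597), where p53-null replicate 2 was closest to p53-WT replicate 3 (0.205), so the numbers were not taken as pairs. With the replicate number as a block, 4, 7, 5 and 6 of the 7 genes and 1774, 6307, 3882 and 9814 of all genes were called for UCI-1001, UCI-1014, between the compounds and for p53-WT. It changed no call of the 7 genes. With the numbers of UCI-1014 crossed in the block, 6 of the 7 genes and 4979 of all genes were called between the compounds, GADD45B (0.26) among them.

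The changes of PLK3 and GADD45A in TOV-112D rest on 52 to 89 and 68 to 277 counts, which limits their precision.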
